A study of Mus musculus with 24 samples.

Results

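Basement membrane collagens and nidogen are described here in the livers of mice that lack Abcb4, the canalicular transporter that moves phosphatidylcholine into bile. The 5 genes are Col4a1, Col4a2, Col15a1, Col18a1 and Nid1, taken by their symbols from the annotation of the array, out of 16504 genes with a name there. Each was measured by 1 feature of the array. Male Abcb4 (-/-) mice of the strain FVB.129P2-Abcb4tm1Bor/J were compared with male Abcb4 (+/+) FVB/NJ mice at 3, 6, 9 and 20 weeks. The knockout is carried by every cell of the animal, and the knockout and control strains are separate stocks. Liver RNA of both genotypes was hybridised to 24 spotted cDNA arrays, 6 for each time, with the knockout RNA in Cy5 on 3 and in Cy3 on 3 of the 6. The time of each array is that of its title, because every source name reads 3 weeks, and the sample descriptions count the weeks from weaning. The series states 5 mice of each genotype at each time and 1 dye swap, so at least 1 array at each time repeats mice, the arrays outnumber the animals, and p-values are smaller than they would be over mice.

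A basement membrane is a thin sheet of extracellular matrix under epithelia and around vessels, muscle fibres and bile ducts. Its frame is a network of type IV collagen, most often made of α1 and α2 chains from Col4a1 and Col4a2, laid beside a network of laminin. Nidogen 1, the product of Nid1, binds both laminin and type IV collagen and links the networks. Collagens XV and XVIII, from Col15a1 and Col18a1, are collagens with heparan or chondroitin sulfate chains whose C-terminal pieces (endostatin for collagen XVIII) can be released. The hepatic sinusoid has little continuous basement membrane, in contrast to bile ducts and portal vessels. Hepatocytes are a known source of collagen XVIII, and stellate cells, endothelium and bile duct cells of type IV collagen.

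Col4a1 and Col4a2 lie head to head on chromosome 8 and are read in opposite directions from a shared promoter. In GRCm38.p6, Col4a1 spans chr8:11198423-11312889 and Col4a2 spans chr8:11312805-11449287. The RefSeq start sites used for the promoter windows lie 21 bases apart. The windows of 300 bases (250 before and 50 after each start site) are shown because they overlap around both start sites. The bases held by both windows are in capitals. Their extent follows from the window length and does not mark the limits of the promoter. Col4a1 is on the minus strand at chr8:11312777-11313076 and Col4a2 on the plus strand at chr8:11312555-11312854.
Col4a1: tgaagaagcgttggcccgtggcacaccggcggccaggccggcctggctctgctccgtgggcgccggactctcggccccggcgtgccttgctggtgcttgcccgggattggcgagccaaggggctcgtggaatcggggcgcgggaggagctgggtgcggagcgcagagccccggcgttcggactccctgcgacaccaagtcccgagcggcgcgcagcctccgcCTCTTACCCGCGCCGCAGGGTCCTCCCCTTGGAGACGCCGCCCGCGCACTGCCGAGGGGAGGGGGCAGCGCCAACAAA
Col4a2: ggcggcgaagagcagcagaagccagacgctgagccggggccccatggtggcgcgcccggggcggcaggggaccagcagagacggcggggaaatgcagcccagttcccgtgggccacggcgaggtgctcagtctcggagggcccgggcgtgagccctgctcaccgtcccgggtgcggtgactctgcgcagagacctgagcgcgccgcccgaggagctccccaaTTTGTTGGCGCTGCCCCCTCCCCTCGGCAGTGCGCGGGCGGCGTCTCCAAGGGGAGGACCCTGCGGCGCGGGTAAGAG
The shared 78 bases are 73.1% G and C and hold 1 match to GGGCGG, the core of a GC box, and 1 match to CCCTCCCC, the letters of the CTC box described in the human COL4A1 and COL4A2 promoter. Each of these short motifs was searched on both strands. Of 32851 promoter windows of 300 bases, 35.7% held GGGCGG, 37.4% held CCAAT, 13.6% held TATAAA and 10.8% held CCCTCCCC. These shares are for whole windows and not for stretches of 78 bases.

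Nid1 lies on the plus strand of chromosome 13, from 13437602 to 13512275. Its window, chr13:13437352-13437651, is shown for comparison, with capitals marking its matches to CCAAT (on the other strand), GGGCGG and CCCTCCCC.
Nid1: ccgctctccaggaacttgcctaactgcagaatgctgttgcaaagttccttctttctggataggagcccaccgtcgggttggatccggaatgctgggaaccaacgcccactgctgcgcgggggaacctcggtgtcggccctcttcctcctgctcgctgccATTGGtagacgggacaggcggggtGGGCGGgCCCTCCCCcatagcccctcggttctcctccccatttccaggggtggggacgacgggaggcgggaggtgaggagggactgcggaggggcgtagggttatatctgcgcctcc
The share of G and C was 74% in the Col4a1 window, 73.7% in that of Col4a2, 64.7% in that of Nid1 and 53.8% over all windows. Col15a1 on chromosome 4 had a window with 52.3% G and C and no match to the 4 motifs. Col18a1 on chromosome 10 had 2 windows: the upstream one held GGGCGG at 3 places and CCAAT at 1, and the other held none of the 4 motifs. The whole Col4a1 window held GGGCGG at 1 place and CCAAT at 1. That of Col4a2 held GGGCGG at 3 places and CCAAT at 1. These CCAAT matches lay outside the shared 78 bases. TATAAA was found in none of the members' windows. A match describes letters only, and the arrays do not measure promoter activity.

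All values are log ratios, knockout over wild type, read here as log2, so that 1 stands for a 2-fold difference; the sources used here do not state the base or which dye was divided by which. The sign was set so that Abcb4 itself is lower in the knockout. With that sign Abcb4 was below 0 on all 24 arrays, with means of -0.87 ± 0.24, -1.57 ± 0.37, -1.42 ± 0.66 and -1.34 ± 0.34 (SD, n = 6 arrays each) at 3, 6, 9 and 20 weeks. With the other sign every rise in the text would be a fall. Before the sign was turned, arrays of opposite dye orientation at the same time correlated negatively, with median r of -0.29, -0.47, -0.51 and -0.35 over all features. The lowest correlation of 2 turned arrays of 1 time was -0.05 at 3 weeks, the least even group, and 0.05 at 20 weeks. It was 0.22 at 6 weeks and 0.32 at 9 weeks. Among the 20861 genes and unnamed features tested with limma, 7.39%, 20.9%, 21.3% and 13.5% differed at 3, 6, 9 and 20 weeks at a Benjamini-Hochberg adjusted p under 0.05. The number of arrays limits the precision, and no level of any gene can be given, since the values are ratios.

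Nid1, Col4a1 and Col4a2 were higher in the knockout at all 4 times and on all 24 arrays. Col15a1 was higher at 9 weeks, and Col18a1 did not pass the test at any time. Of the 5 members, 3, 3, 4 and 3 rose at 3, 6, 9 and 20 weeks, against 3.64%, 10.8%, 10.4% and 8.09% of all items, and no member fell, where 3.75%, 10.1%, 10.9% and 5.37% of all items fell. The median over the 5 members was 0.56, 0.82, 0.95 and 0.59 in time order, against a median of all items between -0.01 and 0. Over all items, 1.47% rose at each of the 4 times. In whole liver, more cells of a type and more RNA for each cell cannot be told apart.

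**Figure D1:**
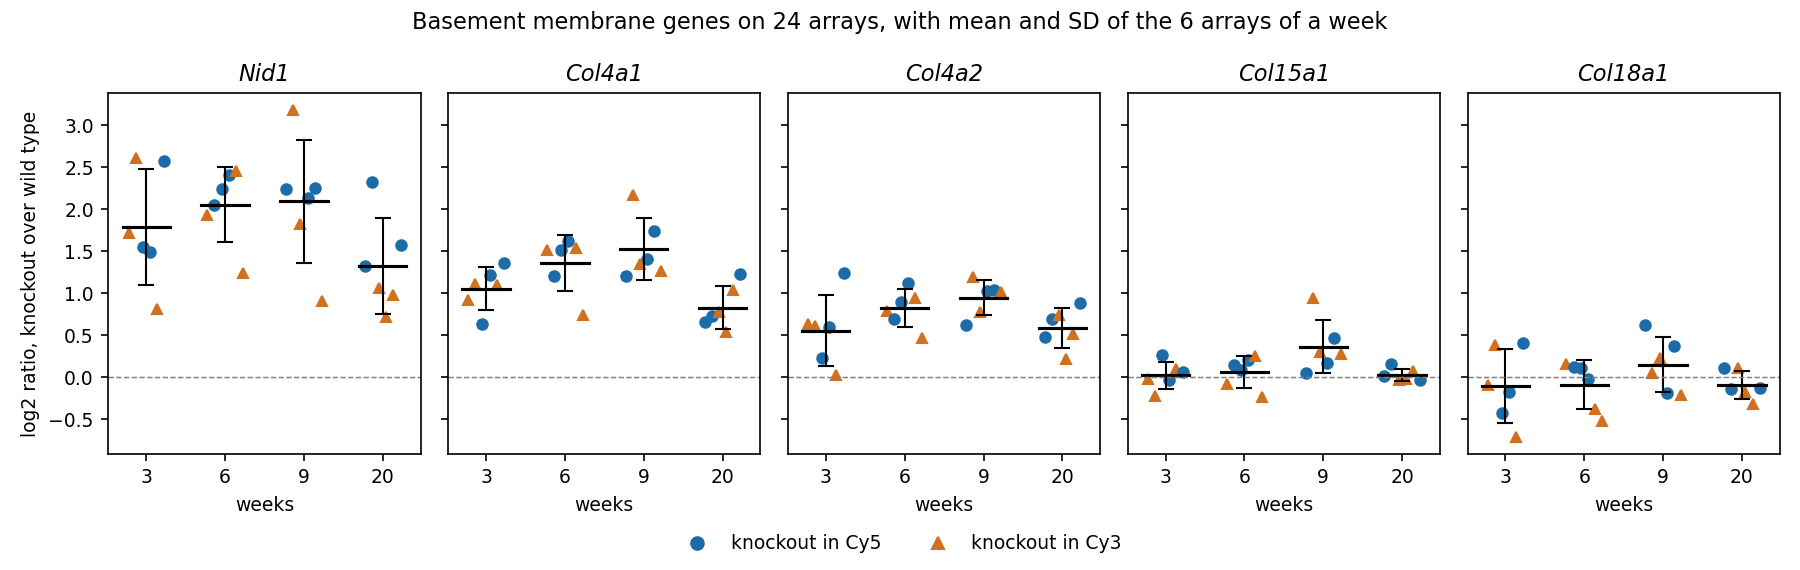
Log2 ratio (knockout over wild type, y axis) of each member on each of the 6 arrays at 3, 6, 9 and 20 weeks (x axis), with the mean and SD as black bars. Circles have the knockout RNA in Cy5 and triangles in Cy3. All points of Nid1, Col4a1 and Col4a2 lie above 0, from 0.02 (Col4a2, 3 weeks) to 3.19 (Nid1, 9 weeks), and those of Col18a1 lie on both sides of 0 at each time.

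Nid1, the linker of laminin and type IV collagen, had the highest ratio of the 5 members at each time. At 3 weeks its arrays ran from 0.81 through a median of 1.63 to 2.61. At 6 weeks they ran from 1.24 through 2.15 to 2.45, and at 9 weeks from 0.91 through 2.19 to 3.19. At 20 weeks the lowest was 0.72, the median 1.20 and the highest 2.33. Every array lay above 0, and the 4 times overlapped. The means were 1.79 ± 0.69, 2.06 ± 0.45, 2.09 ± 0.74 and 1.33 ± 0.57 (SD, n = 6 arrays), with limma adjusted p of 1.82e-05, 1.74e-06, 1.13e-06 and 0.000408. Sorted by mean ratio, Nid1 held rank 16, 15, 13 and 40 of the 16504 named genes. At 20 weeks the 3 arrays with knockout in Cy5 (1.33 to 2.33, mean 1.74) lay above the 3 with knockout in Cy3 (0.72 to 1.06, mean 0.92); the dye term over all times did not pass the test for Nid1 (adjusted p = 0.267).

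Col4a1, the α1 chain of type IV collagen, ran from 0.63 through a median of 1.10 to 1.36 at 3 weeks and from 0.74 through 1.51 to 1.63 at 6 weeks. At 9 weeks it ran from 1.21 through 1.38 to 2.17, and at 20 weeks from 0.54 through 0.75 to 1.23. The 9-week and 20-week arrays met only at their edges, with the lowest at 9 weeks (1.21) just under the highest at 20 weeks (1.23). The means were 1.055 ± 0.25, 1.36 ± 0.33, 1.52 ± 0.37 and 0.83 ± 0.26 (SD, n = 6 arrays), with limma adjusted p of 4.87e-06, 1.27e-07, 1.73e-08 and 7.42e-05. By mean ratio it held rank 78, 67, 43 and 161.

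Col4a2, the α2 chain, ran from 0.02 through a median of 0.60 to 1.25 at 3 weeks, the widest spread of its 4 times. It ran from 0.47 through 0.84 to 1.13 at 6 weeks and from 0.62 through 1.02 to 1.19 at 9 weeks. At 20 weeks the lowest was 0.21, the median 0.60 and the highest 0.88. The times overlapped. The means were 0.56 ± 0.42, 0.82 ± 0.23, 0.95 ± 0.21 and 0.59 ± 0.24 (SD, n = 6 arrays), with limma adjusted p of 0.00178, 1.47e-05, 2.28e-06 and 0.000904. The call at 3 weeks was lost when that time was fitted without the others (adjusted p = 0.132).

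Col15a1, the chain of collagen XV, stayed near 0 except at 9 weeks. Its arrays ran from -0.23 through 0.02 to 0.27 at 3 weeks, from -0.24 through 0.12 to 0.25 at 6 weeks and from -0.04 through 0.00 to 0.16 at 20 weeks. At 9 weeks they ran from 0.05 through 0.29 to 0.94, all above 0. The 9-week mean was 0.37 ± 0.31 (SD, n = 6 arrays; limma adjusted p = 0.00226), and the means at the other times were 0.02 ± 0.16, 0.06 ± 0.19 and 0.03 ± 0.08, with adjusted p of 0.948, 0.645 and 0.881. Without the highest 9-week array, replicate 2, the mean was 0.24 (adjusted p = 0.0122), and with that time fitted by itself the adjusted p was 0.0676.

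Col18a1, the chain of collagen XVIII that carries endostatin, had arrays on both sides of 0 at each time. At 3 weeks they ran from -0.72 through -0.13 to 0.41, and at 6 weeks from -0.52 through 0.04 to 0.16. At 9 weeks they ran from -0.21 through 0.14 to 0.63, and at 20 weeks from -0.32 through -0.14 to 0.11. The means were -0.10 ± 0.44, -0.09 ± 0.29, 0.15 ± 0.33 and -0.09 ± 0.17 (SD, n = 6 arrays), with limma adjusted p of 0.784, 0.673, 0.452 and 0.697. The 95% intervals, in time order, were -0.36 to 0.15, -0.34 to 0.16, -0.11 to 0.40 and -0.35 to 0.16. True differences within those bounds were compatible with these arrays, and the intervals carry no adjustment for the number of items.

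The ratios of Nid1, Col4a1 and Col4a2 were lower at 20 weeks than at 9 weeks in these means, but none of the 4 differences between times that were tested (3 to 6, 6 to 9, 9 to 20 and 3 to 20 weeks) passed for any of the 5 members. From 9 to 20 weeks the difference of Col4a1 was -0.70 (95% interval -1.05 to -0.34, limma adjusted p = 0.115). That of Nid1 was -0.76 (interval -1.44 to -0.09, adjusted p = 0.374) and that of Col4a2 was -0.36 (interval -0.68 to -0.04, adjusted p = 0.379). Col15a1 differed by -0.34 between these times (interval -0.58 to -0.10, adjusted p = 0.265). From 3 to 20 weeks Nid1 differed by -0.46 (adjusted p = 0.508) and Col4a1 by -0.23 (adjusted p = 0.546). Of all items, 0.0959% passed from 9 to 20 weeks, 1.30% from 3 to 6 weeks, 0.0767% from 6 to 9 weeks and 4.57% from 3 to 20 weeks. The F test over the 4 times passed for 1 of 5 members, Col4a1 (adjusted p = 0.0497), and for 5.08% of all items. That call was lost when any 1 of 20 of the 24 arrays was left out (adjusted p up to 0.108, without the replicate 1 array of 20 weeks), and under 7 of 10 other settings.

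**Figure D2:**
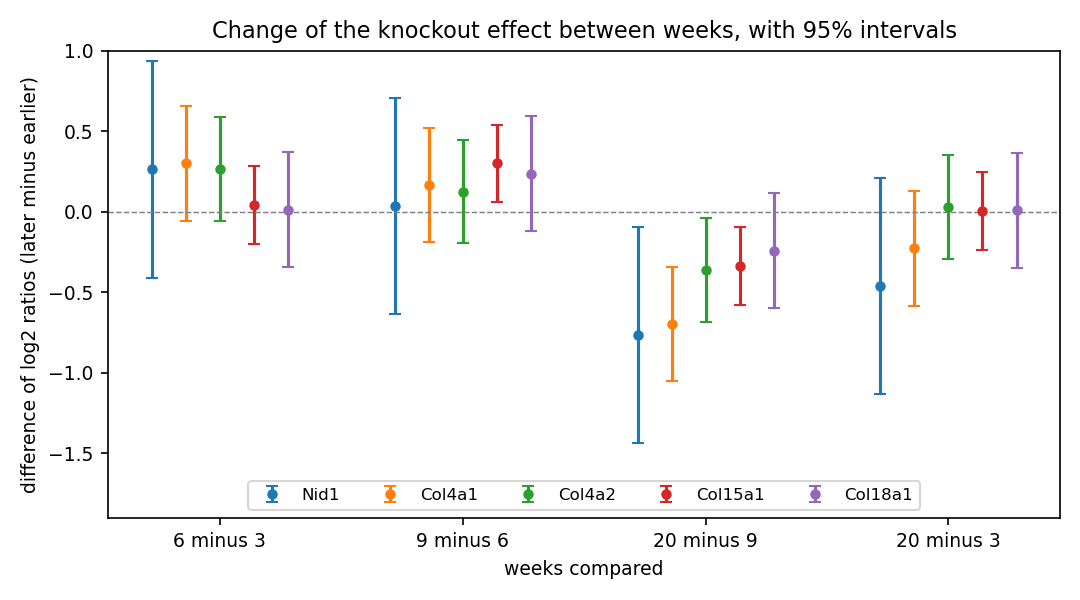
Differences between the knockout ratios of 2 times (later minus earlier, log2, y axis) for the 5 members in each of 4 comparisons of weeks (x axis); points are estimates and bars 95% intervals without adjustment for the number of items. The intervals of Nid1, Col4a1, Col4a2 and Col15a1 lie below 0 from 9 to 20 weeks, and none of these differences passed after adjustment.

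Across the 24 arrays the members varied together to unequal degrees, and the correlations are given as a description over arrays that share times, dye orientations and some mice. Col4a1 was above Col4a2 on 24 of 24 arrays. The Pearson r of these 2 chains was 0.75 and the Spearman rho 0.84 over 24 arrays. After the weekly means and the dye term were removed, r was 0.67. Within the 4 times it was 0.61, 0.92, 0.75 and 0.69. Nid1 had r of 0.67 with both Col4a1 and Col4a2 (0.57 and 0.59 after removal), and Col4a1 exceeded Nid1 on 3 arrays. Col18a1 and Nid1 had r of 0.53 (0.49 after removal), with 0.97 at 3 weeks and 0.05 at 20 weeks. Col15a1 and Col18a1 had r of 0.05 (-0.23 after removal).

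**Figure D3:**
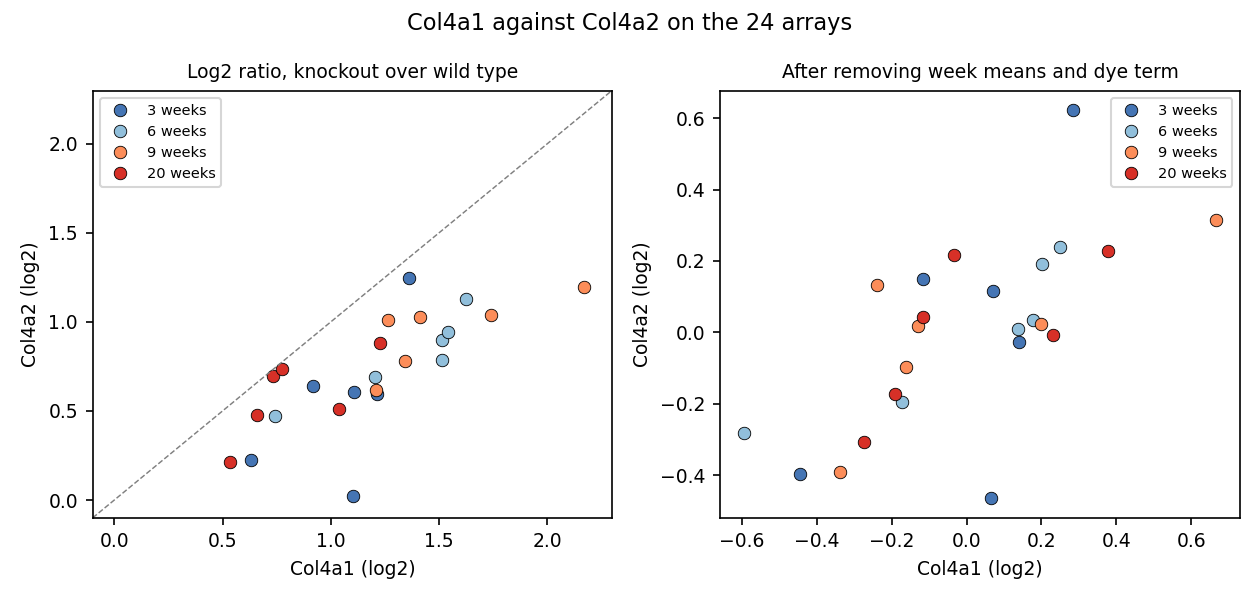
Col4a2 (y axis) against Col4a1 (x axis) on the 24 arrays, coloured by week: left, log2 ratios (knockout over wild type) with the line of equal values dashed; right, the same after the weekly means and the dye term were removed. All 24 points on the left lie below the line, and r is 0.75 on the left and 0.67 on the right.

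The named genes most alike to each member, with clone names and predicted genes left out, were ranked by Pearson r over the 24 arrays. For Col4a2 they included Lamc1 (laminin γ1, r = 0.80) and Col4a1 (r = 0.75), beside Spa17 (r = 0.85), Pomk and Alcam. For Col4a1 the closest was Elf3, an epithelial transcription factor (r = 0.83, and 0.83 after removal of weekly means and dye), followed by Rac3 (r = 0.80), Msantd3, Phlda3 and Slc11a1. For Nid1 they were Smox (r = 0.86), Anxa2 (annexin A2, r = 0.86), Fat1 (an atypical cadherin, r = 0.85), Marveld2 and Trrap. For Col15a1 they were Rcn2 (r = 0.88), Kctd12, Fmo4, Siah1b and Clec4a2, and for Col18a1 they were Pde2a (r = 0.85), Slc8b1, Dhx35, Grb2 and Eif6. All of these were picked as the highest of the named genes kept, so their size is that of a selected extreme.

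The minor type IV chains, which form the α3α4α5 and α5α5α6 networks, had ratios below those of Col4a1 and Col4a2. Of 9 measured chains of the minor type IV, type VI, type VII and type VIII collagens, 1 rose at 3 weeks, 5 rose and 2 fell at 6 weeks, 4 rose at 9 weeks and 4 rose at 20 weeks, with medians of 0.11, 0.14, 0.13 and 0.09. The 5 that rose at 6 weeks became 3 without the replicate 1 array of that time. In this and the following lists, counts of 2 or fewer in a direction moved by at most 2 when single arrays were left out. The counts of all these lists stand beside the shares of all items that rose (3.64%, 10.8%, 10.4% and 8.09% in time order). The shares of all items that fell were 3.75%, 10.1%, 10.9% and 5.37%. Col4a5 rose by 0.27 ± 0.13, 0.36 ± 0.33 and 0.40 ± 0.15 at 6, 9 and 20 weeks (limma adjusted p = 0.0176, 0.00208 and 0.00161). Col4a3 was at 0.29 ± 0.27, 0.26 ± 0.12, 0.21 ± 0.14 and 0.21 ± 0.09, with adjusted p of 0.00751, 0.00711, 0.0291 and 0.0378. The Col4a3 calls at 3, 9 and 20 weeks, those of Col4a5 at 6 and 9 weeks, and the 6-week calls of Col4a4 (0.14) and Col4a6 (-0.11), were lost under some settings. Col6a1, of the beaded filaments that border basement membranes, rose at 6, 9 and 20 weeks by 0.56 ± 0.32, 0.61 ± 0.30 and 0.58 ± 0.28. Whether cDNA spots of related collagen chains share signal was not tested.

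Of 24 measured laminins and proteins that link or bind basement membranes, 0 rose at 3 weeks, 10 at 6 weeks and 17 at 9 weeks, and 15 rose at 20 weeks (9 without the replicate 6 array of 20 weeks), with 2 falling at 20 weeks, and the medians were 0.08, 0.17, 0.32 and 0.26. Without the replicate 2 array of 9 weeks, 2 rose at 3 weeks. The 0 that rose at 3 weeks and the 2 that fell at 20 weeks were near the shares of all items (3.64% and 5.37%). Lamb1 and Lamc1, the β1 and γ1 chains of the common laminins, rose by 0.57 ± 0.32 and 0.44 ± 0.20 at 6 weeks, by 0.74 ± 0.47 and 0.48 ± 0.30 at 9 weeks, and by 0.51 ± 0.20 and 0.31 ± 0.16 at 20 weeks. Lama5, the α5 chain of epithelial and vascular laminins, was at 0.45 ± 0.22, 0.78 ± 0.52 and 0.50 ± 0.38 at these times (adjusted p = 0.0215, 0.0002 and 0.0158); its 6-week and 20-week calls and the 20-week call of Lamc1 were lost under some settings. Lama2, the muscle-type α2 chain, rose by 0.35 ± 0.20, 0.35 ± 0.23 and 0.22 ± 0.09 at 6, 9 and 20 weeks; the 20-week call (adjusted p = 0.0325) was lost without the replicate 2, 4, 5 or 6 array of that time. Lama4, a chain of vascular laminins, rose by 0.31 ± 0.27 at 9 weeks (lost with that time fitted by itself, adjusted p = 0.097) and 0.28 ± 0.08 at 20 weeks. Lamb2, the β2 chain, rose at 20 weeks (0.27 ± 0.16, adjusted p = 0.00596) and was at 0.05 ± 0.12, 0.01 ± 0.19 and 0.17 ± 0.17 at the earlier times.

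Several laminin chains did not rise. Lama1, Lamb3 and Lamc3 passed the test at no time, with means between -0.02 and 0.09. Lama3, an α chain of epithelial anchoring laminins, was lower at 20 weeks (-0.22 ± 0.22, adjusted p = 0.0147, lost without the replicate 5 or 6 array). Nid2, the second nidogen, was at 0.16 ± 0.21, 0.08 ± 0.23, 0.26 ± 0.28 and 0.16 ± 0.04, against 1.33 to 2.09 for Nid1. It passed at 9 weeks only (adjusted p = 0.0303), and without the replicate 2 array of 9 weeks it was at 0.15 (adjusted p = 0.178). The difference between the 2 nidogens was not tested.

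Sparc, a collagen-binding matricellular protein that also binds type IV collagen, rose by 0.94 ± 0.29, 1.19 ± 0.33 and 0.91 ± 0.21 at 6, 9 and 20 weeks, and was at 0.28 ± 0.53 at 3 weeks (adjusted p = 0.25). Smoc2, a SPARC family protein, rose by 1.57 ± 0.43, 1.21 ± 0.58 and 0.89 ± 0.63 at 6, 9 and 20 weeks; the 20-week call (adjusted p = 0.0105) was lost without the replicate 6 array of that time (adjusted p = 0.0627). Fbln5, which acts in elastic fibre assembly, rose by 0.61 ± 0.35, 0.83 ± 0.37 and 0.98 ± 0.22 at 6, 9 and 20 weeks.

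**Figure D4:**
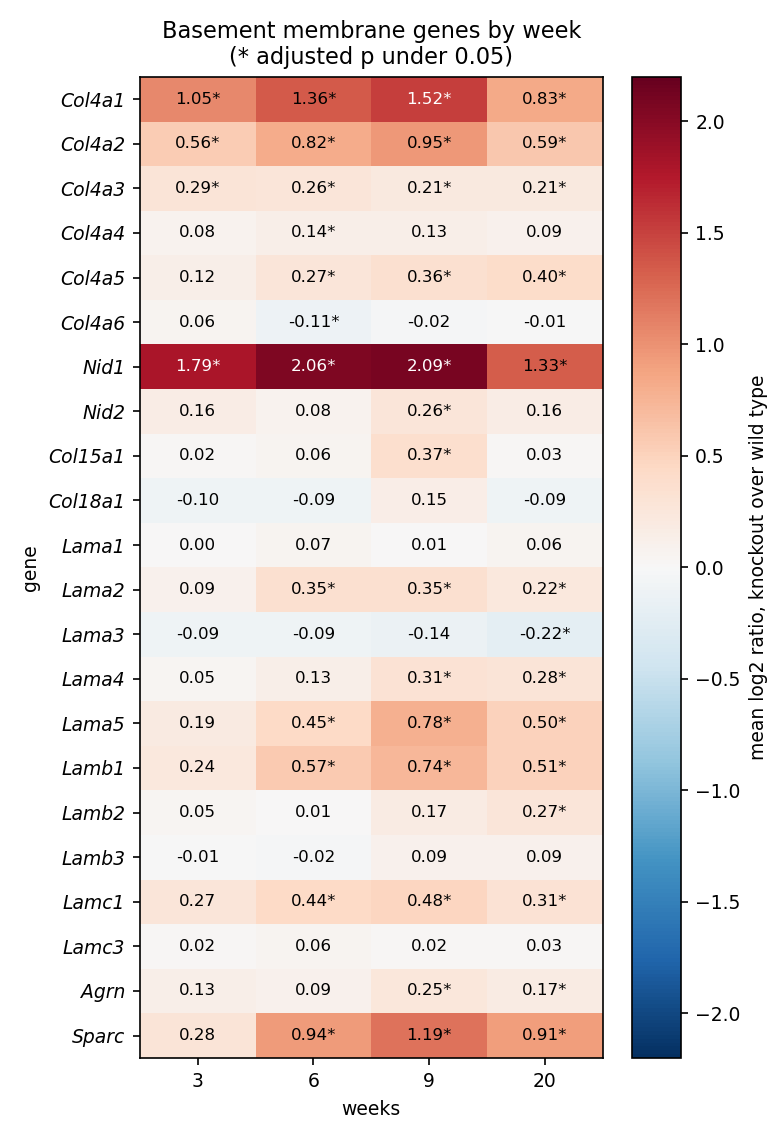
Mean log2 ratio (knockout over wild type, colour scale and printed values, n = 6 arrays each) of 22 basement membrane genes (y axis) at 3, 6, 9 and 20 weeks (x axis); a star marks a limma adjusted p under 0.05. Nid1, Col4a1 and Col4a2 carry a star at all 4 times, and of the laminin chains none does at 3 weeks.

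Among 18 measured receptors for basement membranes, 4 rose and 2 fell at 3 weeks, 6 rose and 1 fell at 6 weeks, 9 rose and 2 fell at 9 weeks, and 6 rose at 20 weeks. The 4 that rose at 3 weeks became 2 without the replicate 3, 5 or 6 array of that time, and the 2 that fell became 1 without the replicate 4, 5 or 6 array. Over all items 10.1% fell at 6 weeks and 10.9% at 9 weeks. The numbers of receptors that fell then were near or below those shares. Ddr1, a collagen receptor kinase that binds type IV collagen, rose by 1.11 ± 0.30, 1.27 ± 0.57 and 1.01 ± 0.44 at 6, 9 and 20 weeks. At 3 weeks Ddr1 was at 0.52 ± 0.29 (adjusted p = 0.0396) and lost the call without any single 3-week array. Itgb1, the β1 chain shared by the collagen and laminin integrins, rose at all 4 times, by 0.37 ± 0.19, 0.45 ± 0.19, 0.47 ± 0.25 and 0.45 ± 0.13; the 3-week call was lost with that time fitted by itself (adjusted p = 0.0701). Sdc1, a cell surface heparan sulfate proteoglycan, rose by 0.58 ± 0.47, 0.43 ± 0.29, 0.81 ± 0.19 and 0.36 ± 0.16 in time order. Its calls at 3, 6 and 20 weeks were lost under some settings. Other syndecans went the other way. Sdc2 fell at 3, 6 and 9 weeks (-0.53 ± 0.35, -0.36 ± 0.09 and -0.36 ± 0.22). Sdc4 fell at 3 weeks (-0.57 ± 0.68, limma adjusted p = 0.0389). The calls of Sdc2 and Sdc4 were not followed gene by gene under other settings.

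Of 25 measured collagen processing enzymes and chaperones, 3, 9, 8 and 6 rose in time order, and 1 fell at 20 weeks. Serpinh1, the procollagen chaperone HSP47, rose by 0.72 ± 0.44, 1.15 ± 0.45, 1.12 ± 0.42 and 1.09 ± 0.40 in time order. Loxl2, a lysyl oxidase that cross-links type IV collagen, rose by 0.92 ± 0.29, 1.27 ± 0.27 and 1.16 ± 0.52 at 6, 9 and 20 weeks. At 3 weeks Loxl2 was at 0.56 ± 0.42 (limma adjusted p = 0.0241). That call was lost without the replicate 1 or 2 array of 3 weeks and under some other settings. Of 27 matrix proteases and inhibitors, 3, 9, 11 and 10 rose in time order, and 1 fell at 6 weeks and 2 at 20 weeks. The numbers that fell in these lists were near or below the shares of all items (10.1% at 6 weeks and 5.37% at 20 weeks). Mmp2, the gelatinase that cuts type IV collagen, rose by 0.44 ± 0.20, 0.58 ± 0.31 and 0.67 ± 0.23 at 6, 9 and 20 weeks and was at 0.08 ± 0.25 at 3 weeks.

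Fibrillar collagens, which form the interstitial matrix, had 5, 8, 8 and 5 of 9 measured genes higher in time order, with 1 lower at 9 weeks and medians of 0.35, 0.69, 0.84 and 0.55. Col3a1 rose by 1.38 ± 0.51 at 3 weeks and, at the later times, by 1.94 ± 0.57, 2.29 ± 0.52 and 1.99 ± 0.45. Col1a1 rose by 1.01 ± 0.41, 1.25 ± 0.38, 1.53 ± 0.16 and 1.31 ± 0.43. The feature of Col2a1, the list's smallest p for the mean over times, rose by 1.22 ± 0.35, 1.85 ± 0.50, 2.10 ± 0.35 and 1.75 ± 0.34. Whether that feature shares signal with those of other collagens was not tested. In the TGF beta list, the signal known to drive collagen production in stellate cells, 1 of 16 measured genes rose at 3 weeks and 9 at each later time. At 3 weeks that count was near the share of all items that rose (3.64%). The 6-week count was 5 without the replicate 3 array of 6 weeks. Tgfbr2, a TGF beta receptor, rose by 0.96 ± 0.38, 1.03 ± 0.50 and 1.37 ± 0.37 at 6, 9 and 20 weeks.

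Markers of other liver cell types were read on the same arrays, and their part in these results was not tested. Their counts stand beside the shares of all items that rose (3.64%, 10.8%, 10.4% and 8.09%) and fell (3.75%, 10.1%, 10.9% and 5.37%). Of 20 stellate cell, myofibroblast and portal fibroblast markers, 5, 13, 13 and 10 rose in time order, and 1 fell at 6 weeks and 1 at 9 weeks; the 5 at 3 weeks became 3 without the replicate 1 array of that time. The median of this list ran over the arrays from 0.11 to 0.21, 0.28 to 0.55, 0.37 to 0.52 and 0.06 to 0.55. Mgp and Lum, matrix genes of portal fibroblasts and stellate cells, were at 2.29 ± 0.45 and 1.86 ± 0.61 at 9 weeks. Both were picked for a small p for the mean over times. At 3 weeks they were at 0.96 ± 0.43 and 0.42 ± 0.35, and Lum did not pass then (limma adjusted p = 0.194).

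Of 17 measured cholangiocyte markers, 6, 9, 10 and 10 rose in time order, and 1 fell at 9 weeks and 1 at 20 weeks; the list's median ran from 0.13 to 0.24, 0.27 to 0.42, 0.28 to 0.92 and 0.26 to 0.59 over the arrays. Tff3, a secreted mucosal peptide, was at 2.09 ± 0.88 and Elf3 at 1.90 ± 0.69 at 9 weeks. Of 24 endothelial and sinusoidal markers, 0, 5, 3 and 1 rose and 2, 3, 1 and 2 fell, so that at 9 and 20 weeks the number that rose was near the share of all items. Without the replicate 3 array of 6 weeks 3 rose and 1 fell at that time, and without its replicate 4 array 5 fell. The median ran from -0.17 to 0.08, -0.14 to 0.08, 0.01 to 0.16 and -0.24 to 0.08. Cd34, a marker of continuous endothelium that is low in normal sinusoids, rose by 0.58 ± 0.14, 0.73 ± 0.32 and 0.70 ± 0.31 at 6, 9 and 20 weeks. Ehd3, a sinusoidal endothelial gene, fell at 3 and 6 weeks (-0.67 ± 0.31 and -0.50 ± 0.17, SD, n = 6 arrays). It did not pass at 9 and 20 weeks (-0.15 ± 0.25 and -0.24 ± 0.30). Esam fell at 9 and 20 weeks (-0.42 ± 0.18 and -0.31 ± 0.24, limma adjusted p = 0.000597 and 0.0139). Eng rose at 6 and 9 weeks (0.31 ± 0.24 and 0.34 ± 0.17, limma adjusted p = 0.0136 and 0.00666).

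Of 16 macrophage and Kupffer cell markers, 6, 11, 11 and 9 rose, and 1 fell at 9 weeks and 1 at 20 weeks. The 6 at 3 weeks became 2 without the replicate 2 or 6 array of that time and 3 without its replicate 1 or 4 array. The median of that list ran from 0.07 to 0.62, 0.22 to 0.81, 0.29 to 1.03 and 0.05 to 0.80 over the arrays. Of 20 hepatocyte markers, 2, 0, 2 and 2 rose and 7, 5, 6 and 4 fell. The 6 that fell at 9 weeks became 3 without the replicate 5 array of that time, and the 4 at 20 weeks became 2 without the replicate 6 array. The median ran from -0.81 to 0.15, -0.46 to 0.10, -0.65 to 0.00 and -0.39 to 0.05. Since the values are ratios of knockout to wild type, they cannot show how much of each marker the tissue held, and which markers were near 0 in level was not analysed here.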

How the data were processed

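The deposited values are 2-colour log ratios, used as log2, 1 column for each of the 24 arrays; the authors' normalization, image analysis and log base are not given in the sources used. Deposited values ran from -8.45 to 7.53 with 0 missing and 0 other columns of sample values. Features were joined to the array annotation through the layout of a grid of 215 rows and 105 columns. The sign was turned where wild type RNA was in Cy5, arrays were centred on their medians, and features were averaged for each symbol, giving 16504 named genes and 4357 features that carry no name or several. limma 3.58.1 in R 4.3.3 (lmFit, eBayes) fitted 1 mean for each week and 1 dye term on 24 arrays. P-values were adjusted by Benjamini-Hochberg over all 20861 items at a threshold of 0.05. The method was run on simulated data with independent arrays, which does not cover arrays that repeat mice. The members, the 12 gene lists and the alternatives were chosen with earlier results of these data known. Genes named beside the members came from every type IV collagen chain, Nid2 and laminin chain, and up to 4 genes of each list with the smallest p for the mean over times. The 5 genes most alike to each member, with clone names and predicted genes left out, were added. Sdc2 and Sdc4 are named beside Sdc1 as other syndecans of its list. Promoters are RefSeq windows of GRCm38.p6. Signal over background was not analysed here.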

Additional observations from a re-analysis of the deposited data

Results flagged for a closer look

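The knockout ratio differed among the 4 times, by limma's F test adjusted over all items, for 1 member and 14 genes picked from the lists. Of all items, 5.08% passed this test. The listed genes were picked from these data, many by a small p for the mean over times. Their number is therefore not a rate to set beside that share. Of these calls only that of Col4a1 was recomputed under other settings. For Col4a1 the adjusted p was 0.0497, with the highest mean at 9 weeks and the lowest at 20 weeks. Among matrix genes the adjusted p was 0.0149 for Sparc, 0.0383 for Fbln5, 0.0116 for P3h3 (a prolyl hydroxylase of collagen), 0.0485 for Plat, 0.0417 for Mmp2 and 0.0203 for Tgfbr2. Among fibroblast and endothelial markers it was 0.0118 for Mgp, 0.00219 for Lum and 0.0073 for Cd34. Among cholangiocyte, hepatocyte and macrophage markers it was 0.0475 for Tff3, 0.0311 for Krt23, 0.00482 for Cyp27a1, 0.00114 for Lyz2 and 0.0243 for C1qb. No array of a member stood apart from the other 5 of its time in 20 groups examined with Dixon's ratio. That ratio is taken gene by gene and cannot show a difference in spread of a whole array. The replicate 2 array of 9 weeks had the largest interquartile range over features (0.386). It held the highest 9-week value of Nid1, Col4a1, Col4a2 and Col15a1. Without it their 9-week means were 1.82, 1.38, 0.88 and 0.24.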

How the results depend on the processing

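Of 700 weekly values of the members recomputed under other settings, 696 kept direction and call, as did 644 of 680 differences between weeks, 143 of 170 F tests and 136 of 140 counts of items. With each week fitted by itself, Col4a2 at 3 weeks (0.56, adjusted p = 0.132) and Col15a1 at 9 weeks (0.37, adjusted p = 0.0676) missed the threshold, and 525 items passed at 3 weeks and 2286 at 9 weeks; fewer arrays entered that fit. With arrays scaled to a common spread 2480 items passed at 3 weeks. The adjusted p of the Col4a1 F test was 0.0843 with quantile normalization, 0.198 with a common spread, 0.0526 with no dye term, 0.112 with the closest pair averaged, 0.115 with robust variances and 0.0687 without the replicate 1 and 2 arrays of 3 weeks. Leaving out 1 array at a time moved it between 0.0203 and 0.108. Small differences changed sign. With a common spread, Col4a1 from 3 to 6 weeks was at -0.00393, Nid1 from 3 to 6 weeks at -0.227, Col4a2 from 3 to 20 weeks at -0.0329 and Col15a1 from 3 to 20 weeks at -0.00579. Quantile normalization gave -0.00612 for Col15a1 and -0.00312 for Col18a1 from 3 to 20 weeks, and -8.81e-05 for Nid1 from 6 to 9 weeks. With no centring Col15a1 from 3 to 20 weeks was at -0.00281, and with the closest pair averaged Col4a2 was at -0.0168. Without the replicate 1 and 2 arrays of 3 weeks Col15a1 was at -0.0361 from 3 to 6 weeks and -0.0731 from 3 to 20 weeks. Leaving out 1 array at a time gave -0.0261 to 0.0738 for Col15a1 and -0.224 to 0.00768 for Col18a1 at 3 weeks. For differences from 3 to 6 weeks it gave -0.00881 to 0.103 for Col15a1 and -0.0971 to 0.134 for Col18a1, and for Nid1 from 6 to 9 weeks -0.233 to 0.247. From 3 to 20 weeks it gave -0.0681 to 0.161 for Col4a2, -0.0458 to 0.0541 for Col15a1 and -0.102 to 0.130 for Col18a1. Items passing at 20 weeks ran from 1821, without the replicate 2 array, to 3322. The cause of these changes was not tested. List counts and genes outside the members were recomputed after seeing the data; of 93 calls of 43 genes, 21 were lost under some setting and 0 reversed.

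Whether replicate numbers pair the arrays could not be decided from these values. Of 36 pairs of times and numbers, 18 had a correlation of deviations over 0.1, and all ran from -0.364 to 0.496. Of 72 closest matches, 16 had the same number. With the replicate number as a block, 1547, 4397, 4401 and 2857 items passed in time order, and the Col4a1 F test was at 0.0754.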
